A study of Mus musculus with 20 samples.

Results

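The genes examined here are 34 genes listed for the red cell lineage. The list was drawn up with earlier results of these data known, so its counts below are no independent test. It holds 7 early factors (the transcription factors Gata1, Klf1, Tal1, Zfpm1, Nfe2 and Gfi1b, and the erythropoietin receptor Epor). It also holds 17 genes listed under the red cell membrane and the skeleton beneath it, called membrane genes below, and 10 enzymes, carriers and other genes. Where each protein lies in the cell was not tested. Each was represented by the probe set whose platform annotation gives that symbol alone, and by the one with the highest mean over all arrays where there were several, as for Ank1 and Tmcc2; the other 32 genes had 1 probe set. They are 34 of 22180 genes with such a probe set. All 34 were among the 16638 genes tested, which were those with a mean log2 signal of at least 3.86 over all arrays. The lowest group mean of any of them was 3.81, for Ces2g in the WT Lin- + MCSF group, and every other group mean of the 34 genes lay above that threshold.

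Red cells form from myelo-erythroid progenitors through a sequence of erythroblast stages. GATA1, with its cofactor FOG1 (encoded by Zfpm1), the TAL1 complex and KLF1 switch on erythroid genes, and erythropoietin acting on its receptor keeps the committed cells alive. The transcripts of the red cell membrane, such as the Rh complex, the anion exchanger band 3 and the spectrin and ankyrin skeleton, accumulate as erythroblasts mature. In mouse bone marrow, common myeloid progenitors (CMP) have long been described as able to give erythroid and megakaryocytic cells, whereas granulocyte-macrophage progenitors (GMP) are described as having lost that capacity.

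The study compared WT mice with CreER-Raptor mice, in which the gene for Raptor, the defining subunit of the kinase complex mTORC1, carries flox alleles (CreER-Rptor-flox/flox in the design text) together with CreER, a Cre recombinase that needs an estrogen receptor ligand to act. There were 6 groups of female mice on a C57BL/6 background: WT CMP and CreER-Raptor CMP with 3 arrays each, WT GMP and CreER-Raptor GMP with 3 arrays each, and WT Lin- + MCSF and CreER-Raptor Lin- + MCSF with 4 arrays each. CMP and GMP were lysed after sorting from bone marrow, while the lineage-negative (Lin-) cells were first cultured for 12 hours with M-CSF, a macrophage growth factor, at 10 ng/ml. The sources used here do not state the promoter of CreER, whether and when it was activated, whether WT mice carried it, the age of the mice, the surface gates or whether replicate arrays represent different mice. The p-values therefore reflect spread among these samples alone, and that spread may be technical.

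The deposited values were log2 probe set signals between 1.77 and 13.2, with array medians from 4.76 to 4.91 and correlations between an array and its own group of 0.982 or more. The Rptor probe set read 8.51 to 8.72 in WT CMP against 8.20 to 8.45 in CreER-Raptor CMP, while the 2 genotypes overlapped in GMP and in Lin- + MCSF. Its change was -0.29 ± 0.13 (SE), -0.17 ± 0.13 and -0.18 ± 0.11 in CMP, GMP and Lin- + MCSF, with adjusted p-values from limma of 0.163, 0.465 and 0.305. Where its probes lie relative to the floxed part was not analysed here, so this is no check of recombination. Cd34, whose protein is commonly used to sort CMP and GMP, fell in CreER-Raptor CMP by 1.08 ± 0.15 (adjusted p 2.59e-05) and in CreER-Raptor GMP by 1.37 ± 0.15 (adjusted p 1.27e-06). Of 2 other genes whose proteins are commonly used in these sorts, Fcgr3 was at -0.64 (adjusted p 0.00318) and Kit at 0.42 (adjusted p 0.0202) in CMP, and at -0.07 (adjusted p 0.84) and 0.29 (adjusted p 0.123) in GMP. In the Lin- + MCSF group the mature T cell gene Cd3e read 7.06 to 8.89, against 4.62 to 5.17 in the CMP groups, and Itgam, a myeloid lineage gene, read 9.80 to 10.6. Some arrays stood apart for the erythroid genes. CreER-Raptor GMP replicate 2 was the highest array of its group for 28 of the 34 genes (34.4% of all tested genes), CreER-Raptor CMP replicate 2 for 30 (36.3%) and CreER-Raptor Lin- + MCSF replicate 2 for 25 (27.5%). CreER-Raptor CMP replicate 3 was the lowest of its group for 32 (38.3%), and it also stood apart for other lists, with a mean log2 signal of the macrophage markers of 6.53, beside 5.95 and 6.16, and of the mast cell and basophil markers of 7.38, beside 6.94 and 6.91. These are bulk samples, in which fewer cells of a type and less RNA per cell cannot be told apart.

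Promoter sequences were available in the RefSeq table (GRCm38.p6) for 27 of the 34 genes, and the 250 bases before each listed start were searched on both strands for 3 motifs named after erythroid factors. The letters GATAA, which read TTATC on the other strand and are the core that GATA factors recognise, occurred for 15 of the 27 genes (55.6%) and for 25.5% of all 27025 genes with a window of this length. They occurred for 4 of 6 early factors, 7 of 14 membrane genes and 4 of 7 other genes. The letters CCNCNCCC, the core bound by KLF1, occurred for 19 of the 27 (70.4%) against 48.5% of all genes, and the E-box CAGNTG, the kind of site bound by TAL1 with its partner, for 12 (44.4%) against 48.2%. Among the matched genes, the GATAA letters were present for 3 of 6 that were higher in CreER-Raptor cells of all 3 populations and for 2 of 5 that passed the test upwards in none. A match of these letters is a description of the sequence and not a binding site. Of the windows with GATAA, 5 are shown because their genes carry the results below: 2 early genes, Klf1 (chr8:84901732-84901981, plus strand) and Epor (chr9:21963577-21963826, minus strand), and 3 genes that were higher in CreER-Raptor cells of all 3 populations, Rhag (chr17:40810899-40811148, plus strand), Ermap (chr4:119189996-119190245, minus strand) and Ces2g (chr8:104961468-104961717, plus strand). Each is written 5′ to 3′ on the strand of its gene, with GATAA or TTATC in capitals and the listed start directly after the last base.
Klf1: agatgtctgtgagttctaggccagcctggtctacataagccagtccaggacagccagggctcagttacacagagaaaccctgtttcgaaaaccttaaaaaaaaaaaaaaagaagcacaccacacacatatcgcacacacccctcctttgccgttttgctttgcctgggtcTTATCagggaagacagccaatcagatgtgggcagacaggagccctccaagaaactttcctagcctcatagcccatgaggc
Epor: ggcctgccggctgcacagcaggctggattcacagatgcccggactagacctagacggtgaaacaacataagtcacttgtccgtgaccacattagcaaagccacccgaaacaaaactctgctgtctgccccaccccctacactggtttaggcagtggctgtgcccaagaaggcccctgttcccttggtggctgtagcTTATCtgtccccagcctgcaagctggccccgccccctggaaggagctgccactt
Rhag: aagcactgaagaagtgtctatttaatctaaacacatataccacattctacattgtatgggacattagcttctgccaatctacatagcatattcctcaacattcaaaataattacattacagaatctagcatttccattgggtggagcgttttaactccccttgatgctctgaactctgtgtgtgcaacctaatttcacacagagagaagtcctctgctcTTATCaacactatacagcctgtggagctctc
Ermap: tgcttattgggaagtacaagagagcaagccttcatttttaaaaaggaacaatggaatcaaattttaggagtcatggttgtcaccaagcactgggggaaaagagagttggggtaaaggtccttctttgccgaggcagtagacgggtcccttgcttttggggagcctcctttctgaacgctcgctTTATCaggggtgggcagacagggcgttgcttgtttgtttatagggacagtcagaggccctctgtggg
Ces2g: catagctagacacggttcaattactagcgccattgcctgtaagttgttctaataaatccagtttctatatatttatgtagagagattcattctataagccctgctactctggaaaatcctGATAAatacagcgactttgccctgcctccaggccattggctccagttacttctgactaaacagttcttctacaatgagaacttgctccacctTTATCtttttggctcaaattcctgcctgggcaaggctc
Between the motif and the listed start lie 26 bases for Rhag, 49 for Epor, 62 for Ermap and 75 for Klf1. Ces2g holds the motif once in each orientation, 125 and 33 bases before the listed start. For some genes the listed start differs from the edge of the gene. The Rhag, Ces2g and Ermap genes begin at 40811099, 104961596 and 119190013, each inside its window. Not every searched window therefore lies wholly before its gene. The Rhag motif and the Ces2g motif nearer the listed start lie past these positions, inside the annotated gene. The other motifs shown lie before it.

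In WT cells most of the erythroid genes read higher in CMP than in both other populations. Against WT CMP, 27 of the 34 were lower in WT GMP and 0 were higher, where 4.35% of all tested genes were lower and 6.65% higher. Their median difference was -1.82 in log2 units, against 0.0035 over all genes. Carbonic anhydrase 1 (Car1), an abundant enzyme of early erythroid cells, read 11.13, 11.21 and 10.86 in WT CMP and 6.21, 6.76 and 6.98 in WT GMP, a difference of -4.42 ± 0.40 (adjusted p 2.44e-07). Ermap, an immunoglobulin-family protein of the red cell membrane, read 9.13, 9.62 and 9.03 against 4.90, 5.42 and 5.37 (-4.03 ± 0.34, adjusted p 1.02e-07). Mfsd2b, the sphingosine-1-phosphate exporter of red cells, read 8.55, 8.51 and 8.35 against 5.31, 5.22 and 5.62 (-3.09 ± 0.17, adjusted p 2.84e-10). The arrays of both populations did not overlap for any of these genes, and for 30 of the 34 genes all WT GMP arrays lay below all WT CMP arrays (15.8% of all genes). Of the early factors, Gfi1b was at -2.51, Klf1 at -2.29 and Gata1 at -1.10 in WT GMP relative to WT CMP. Tal1 (-0.37, adjusted p 0.102) and Nfe2 (0.19, adjusted p 0.359) did not pass the test.

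WT Lin- + MCSF cells differed from WT CMP in the sort and in the culture, which cannot be told apart here, and 36% of all tested genes were lower and 19.6% higher in them. Of the 34 erythroid genes 31 were lower and 0 higher, with a median of -2.07, beside a median of -0.14 over all genes. All 7 early factors were lower, from -0.30 for Nfe2 to -2.53 for Klf1. The Nfe2 call (adjusted p 0.0215) was lost without WT Lin- + MCSF replicate 1 or 4 or WT CMP replicate 1 or 3 (adjusted p 0.0523 to 0.0892). The exceptions were Tmcc2 (-0.24), Tmod1 (-0.07) and Bpgm (-0.07), which did not pass the test. The low end was reached by Ces2g, a carboxylesterase gene, which read 3.45 to 4.05 in WT Lin- + MCSF and 9.06 to 9.54 in WT CMP. The heat map of all 34 genes shows the CMP columns above the gene's mean, with the CreER-Raptor CMP arrays highest, for most genes.

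**Figure D1:**
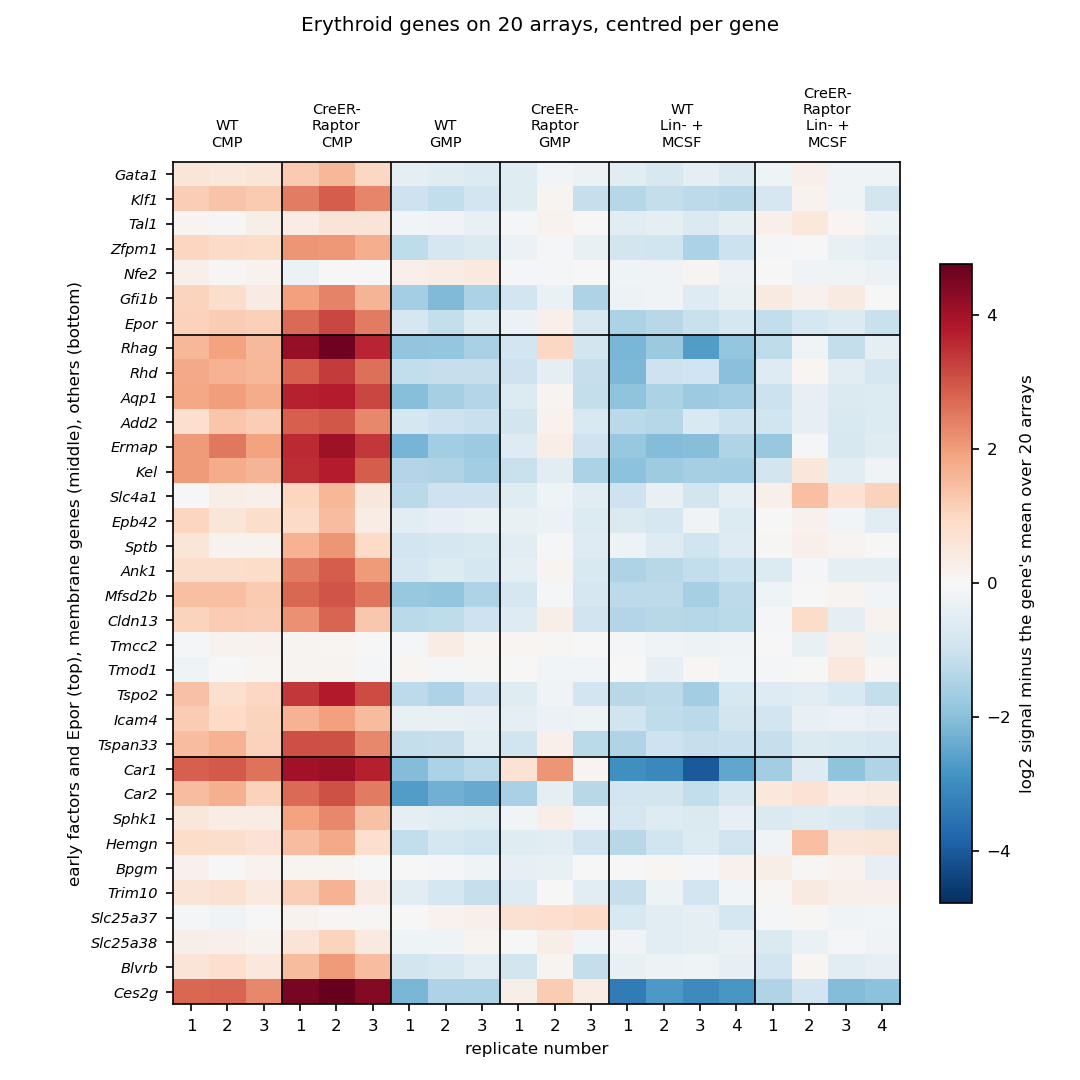
Heat map of the log2 signal of the 34 erythroid genes on the 20 arrays, as the difference from each gene's mean over all arrays (colour bar, log2 units). Columns are arrays, by replicate number within the 6 groups, and horizontal lines part the 7 early, 17 membrane and 10 other genes. The mean of the CreER-Raptor CMP group is the highest of the 6 for 29 of the 34 genes.

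The genotype comparison in CMP asks how this gene set stands in progenitors with floxed Rptor. In CreER-Raptor CMP 22 of the 34 erythroid genes were higher than in WT CMP and 0 lower, where 6.01% of all tested genes were higher and 5.44% lower. The median change of the 34 was 1.18 in log2 units and that of all genes -0.01. The count was 5 of 7 early factors, 13 of 17 membrane genes and 4 of 10 others. For 27 of the 34 all CreER-Raptor arrays lay above all WT arrays (15.9% of all genes), and for 1, Nfe2, all lay below (14.9%).

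Among the early factors, Gata1, the master regulator of the lineage, read 6.08, 6.01 and 6.09 in WT CMP and 6.76, 7.10 and 6.50 in CreER-Raptor CMP. Klf1, the factor that activates the adult beta-globin gene, read 7.41, 7.60 and 7.48 against 8.68, 9.12 and 8.56. Neither gene's groups overlapped, and the rise was 0.73 ± 0.15 for Gata1 (adjusted p 0.00158) and 1.29 ± 0.25 for Klf1 (adjusted p 0.000918), a 2.45-fold difference. Epor read 7.26, 7.37 and 7.26 in WT and 8.84, 9.34 and 8.63 in CreER-Raptor CMP. Its rise of 1.63 ± 0.22 (adjusted p 1.82e-05) was the largest estimate among the 7. Zfpm1 read 7.95, 7.82 and 7.80 against 9.03, 8.98 and 8.66 (1.04 ± 0.17, adjusted p 0.000165). Gfi1b, a repressor needed for red cells and platelets, read 8.85, 8.65 and 8.21 against 9.77, 10.17 and 9.41 (1.21 ± 0.24, adjusted p 0.00118). The 2 that did not pass were Tal1 (0.36, 95% interval 0.06 to 0.65, adjusted p 0.128) and Nfe2 (-0.27, interval -0.51 to -0.03, adjusted p 0.152).

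The membrane genes gave the largest changes. Rhag, the glycoprotein that carries the Rh complex to the membrane, read 8.24, 8.55 and 8.18 in WT CMP and 10.82, 11.30 and 10.28 in CreER-Raptor CMP, a rise of 2.48 ± 0.38 (5.57-fold, adjusted p 8.6e-05). Tspo2, an erythroid relative of the mitochondrial translocator protein, read 6.70, 6.05 and 6.28 against 8.66, 9.08 and 8.42 (2.37 ± 0.23, adjusted p 3.48e-07). The lowest CreER-Raptor array lay above the highest WT array by more than a log2 unit for both genes. The water channel gene Aqp1 read 8.93, 9.08 and 8.86 against 10.73, 10.83 and 10.24 (1.64 ± 0.24, adjusted p 4.69e-05). For the skeleton, Ank1, which encodes the ankyrin that ties band 3 to spectrin, read 6.94, 6.93 and 6.95 against 8.56, 8.97 and 8.11 (1.61 ± 0.20, adjusted p 6.69e-06), and Add2, the beta-adducin gene, read 7.22, 7.77 and 7.61 against 9.29, 9.38 and 8.71 (1.59 ± 0.23, adjusted p 4.64e-05). Mfsd2b read 8.55, 8.51 and 8.35 against 9.83, 10.10 and 9.63 (1.38 ± 0.17, adjusted p 8.53e-06). Neither Aqp1, Ank1, Add2 nor Mfsd2b had overlapping groups. The other members that rose were Kel (1.59), Ermap (1.49), Tspan33 (1.40), Sptb (1.26), Rhd (1.25), Slc4a1 (0.85) and Icam4 (0.64), which include the genes of the Kell and Landsteiner-Wiener blood group proteins, beta-spectrin and band 3. The call for Slc4a1 (adjusted p 0.0307) was lost without any single one of CreER-Raptor CMP replicates 1 and 2 or WT CMP replicates 1 to 3 (adjusted p 0.0534 to 0.228), and that for Icam4 without CreER-Raptor CMP replicate 2 (adjusted p 0.062). Cldn13 missed the threshold (0.94, adjusted p 0.0587) and passed it without CreER-Raptor CMP replicate 3 (1.34, adjusted p 0.0046).

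Besides Cldn13, 3 membrane genes did not pass the test. Epb42, which encodes protein 4.2, read 5.20 to 5.63 in WT CMP and 4.97 to 6.08 in CreER-Raptor CMP (0.11, 95% interval -0.35 to 0.56). Tmod1, which caps the short actin filaments of the skeleton, changed by 0.10 (-0.18 to 0.39), and Tmcc2 by -0.0030 (-0.28 to 0.28). The intervals of these 3 genes leave out the median change of the 34 genes. The sign of the Tmcc2 change differed between scalings of the arrays. Over the 6 groups the Tmod1 means ran from 4.38 to 4.63, below the array medians of 4.76 to 4.91. Those of Tmcc2 ran from 5.35 to 5.65. Detection was not assessed, so these readings cannot show that the transcripts stayed unchanged.

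Of the enzymes and carriers, Ces2g rose by 1.96 ± 0.27 (9.06 to 9.54 against 11.1 to 11.5, adjusted p 3.11e-05). Sphk1, the kinase that makes sphingosine-1-phosphate, rose by 1.45 ± 0.17 (6.17, 5.97 and 5.95 against 7.54, 7.90 and 7.01, adjusted p 3.51e-06). Carbonic anhydrase 2 (Car2) read 9.26, 9.48 and 8.90 against 10.51, 10.82 and 10.29 and rose by 1.32 ± 0.21 (adjusted p 0.000125). None of these groups overlapped. Blvrb, biliverdin reductase B, rose by 1.04 (adjusted p 0.00762), a call lost without CreER-Raptor CMP replicate 2 (adjusted p 0.0642). Car1 read 11.13, 11.21 and 10.86 against 12.30, 12.35 and 11.99. These groups did not overlap either, but the change of 1.15 ± 0.40 missed the threshold (adjusted p 0.0704) in the fit of all arrays, whose spread for Car1 came from all 6 groups. In a fit of the CMP arrays alone it passed (adjusted p 0.000467). Bpgm, the mutase that makes 2,3-bisphosphoglycerate, was at -0.04 (-0.33 to 0.26), with a sign that differed between scalings. Its group means ran from 4.62 to 4.99 over the 6 groups, near the array medians of 4.76 to 4.91.

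In CreER-Raptor GMP 1 array carried much of the difference. Of the 34 genes 11 were higher and 1 lower than in WT GMP, where 4.37% of all tested genes were higher and 7.53% lower. The median change was 0.47 against 0.02 over all genes, and all CreER-Raptor arrays lay above all WT arrays for 17 of the 34 and below them for 1 (16.2% of all genes in each direction). Without CreER-Raptor GMP replicate 2 the count was 6 higher and 0 lower, with 2.67% of all genes higher and a median of 0.24. The 6 were Aqp1, Mfsd2b, Car1, Car2, Slc25a37 and Ces2g. Without CreER-Raptor GMP replicate 3 there were 15 calls, with Klf1, Epor and Tspo2 added, and a fit with array weights gave 20 (18 higher, 2 lower). The share of all genes called is not given here for either of these fits. Neither count therefore shows a change particular to the erythroid genes.

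Car1 read 6.21, 6.76 and 6.98 in WT GMP and 8.96, 10.37 and 8.40 in CreER-Raptor GMP, a rise of 2.60 ± 0.40 (6.06-fold, adjusted p 0.00011). Ces2g read 4.61, 5.31 and 5.31 against 7.07, 8.00 and 7.11 (2.31 ± 0.27, adjusted p 4.29e-06). Car2 read 5.12, 5.52 and 5.38 against 6.25, 7.33 and 6.49 (1.35 ± 0.21, adjusted p 0.000122). For these 3 genes replicate 2 was the highest, and the other 2 arrays also lay above every WT array. The mitochondrial iron importer gene Slc25a37, also called mitoferrin-1, read 9.64, 9.85 and 9.92 against 10.41, 10.46 and 10.58, with no array apart from the rest (0.68 ± 0.11, adjusted p 0.000208). Its highest group mean was that of CreER-Raptor GMP, unlike most of the set.

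Among the membrane genes Mfsd2b read 5.31, 5.22 and 5.62 in WT GMP against 6.29, 7.05 and 6.28 in CreER-Raptor GMP (1.16 ± 0.17, adjusted p 8.22e-05). Aqp1 read 5.03, 5.47 and 5.69 against 6.43, 7.21 and 5.92 (1.12 ± 0.24, adjusted p 0.00284). Both genes' arrays were apart between the genotypes. Rhag read 4.79, 4.81 and 5.10 against 5.74, 7.62 and 5.77 (1.48 ± 0.38, adjusted p 0.012), with replicate 2 almost 2 log2 units above the others, and without it the change was 0.86 (adjusted p 0.0973). Ermap read 4.90, 5.42 and 5.37 against 6.48, 7.43 and 6.09 (1.44 ± 0.34, adjusted p 0.00686) and was at 1.06 without replicate 2 (adjusted p 0.0663). The other 13 membrane genes did not pass the test. Slc4a1 (0.67, adjusted p 0.0992) and Tspo2 (0.68, adjusted p 0.0629) came nearest, and each passed under 3 of the alternative settings (adjusted p 0.00604 to 0.0182 and 0.00142 to 0.0466). Add2 read 5.61, 5.46 and 5.36 against 5.55, 6.60 and 5.72, overlapping groups with a change of 0.48 (adjusted p 0.212).

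Of the 7 early factors 2 were higher and 1 lower in CreER-Raptor GMP. Zfpm1 read 5.69, 6.10 and 6.23 in WT and 6.64, 6.83 and 6.55 in CreER-Raptor GMP (0.67 ± 0.17, adjusted p 0.0109), and Gfi1b read 6.17, 5.71 and 6.31 against 6.91, 7.47 and 6.34 (0.84 ± 0.24, adjusted p 0.0223). In both cases every CreER-Raptor array was above every WT array. Nfe2, a subunit of the NF-E2 factor shared by red cells and megakaryocytes, fell by 0.39 ± 0.11 (7.36 to 7.55 against 7.06 to 7.08, adjusted p 0.0258). Zfpm1, Gfi1b and Nfe2 lost their calls without replicate 2 (changes of 0.59, 0.56 and -0.39, adjusted p 0.0649, 0.183 and 0.0756). Sphk1 rose by 0.55 ± 0.17 (adjusted p 0.0373) and was at 0.40 without it (adjusted p 0.225). Leaving out any other GMP array except CreER-Raptor replicate 3 also ended the call for 1 or more of Nfe2, Gfi1b, Zfpm1 and Sphk1. Gata1 read 5.08, 4.95 and 4.86 against 4.96, 5.41 and 5.24 (0.24, adjusted p 0.349), Klf1 5.24, 5.07 and 5.31 against 5.65, 6.35 and 5.16 (0.51, adjusted p 0.214), and Epor 5.35, 5.01 and 5.48 against 5.89, 6.37 and 5.38 (0.60, adjusted p 0.0834). The genotypes overlapped for all 3 of these genes. With array weights Klf1 and Epor passed (adjusted p 0.0207 and 0.00208).

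**Figure D2:**
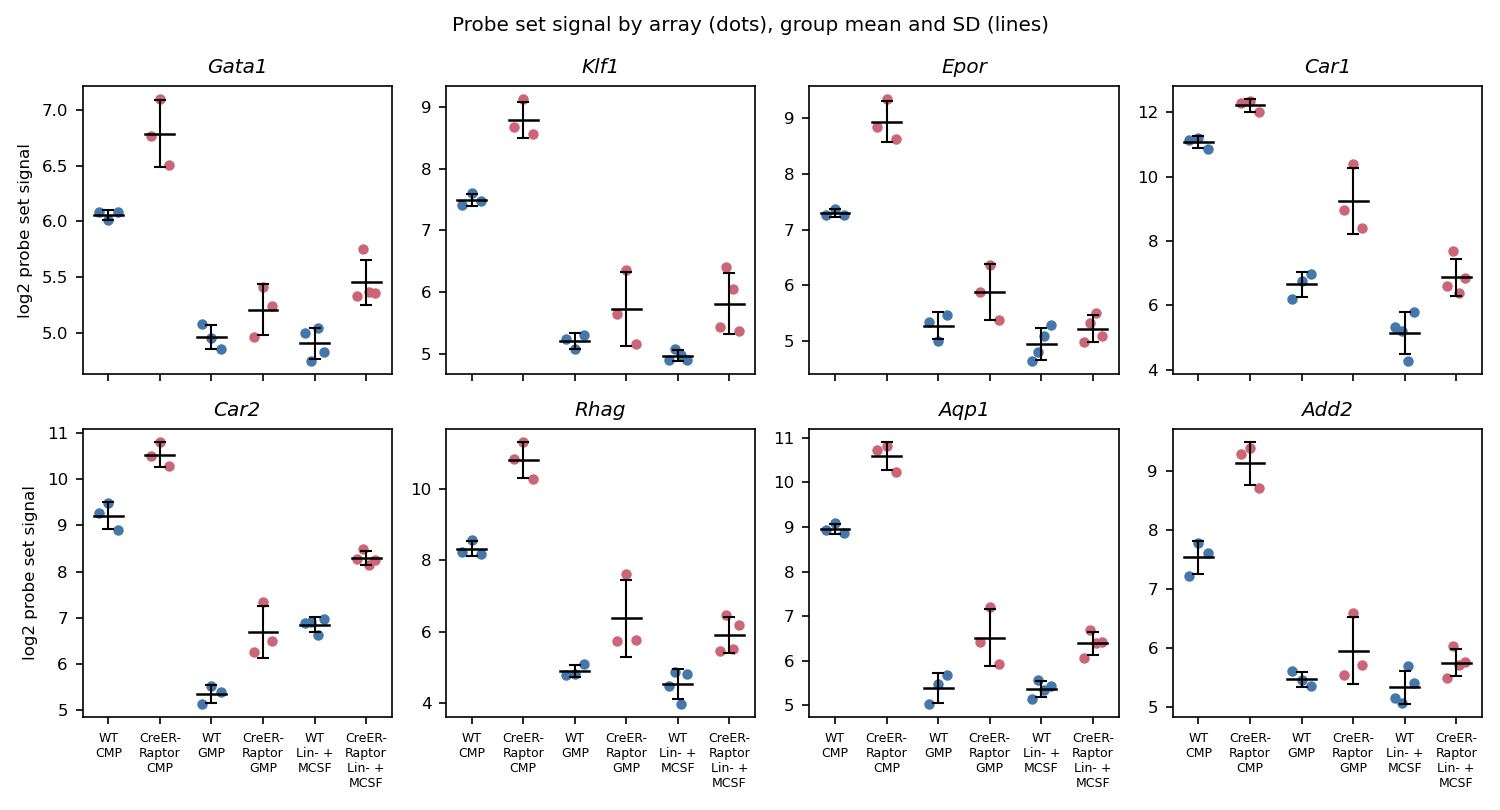
Log2 probe set signal of Gata1, Klf1, Epor, Car1, Car2, Rhag, Aqp1 and Add2 on each array (dots, blue for WT and red for CreER-Raptor) in the 6 groups, with the group mean and SD (lines, 3 or 4 arrays). The axes differ between genes and do not start at 0. CreER-Raptor CMP is the highest group for all 8 genes, and 1 CreER-Raptor GMP array, replicate 2, lies above its group in each.

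In the M-CSF cultures of Lin- cells 21 of the 34 erythroid genes were higher in CreER-Raptor and 0 lower, where 6.82% of all tested genes were higher and 5.73% lower. The median change was 0.70, against 0.01 over all genes. The count was 4 of 7 early factors, 11 of 17 membrane genes and 6 of 10 others. All CreER-Raptor arrays lay above all WT arrays for 20 of the 34 (7.45% of all genes).

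Tal1, the factor around which the erythroid activator complex assembles, read 6.25, 6.26, 6.04 and 6.29 in WT and 6.98, 7.24, 6.82 and 6.51 in CreER-Raptor cultures (0.68 ± 0.12, adjusted p 0.000775). Zfpm1 read 6.04, 5.97, 5.41 and 5.89 against 6.87, 6.89, 6.56 and 6.41 (0.86 ± 0.15, adjusted p 0.000402). Gata1 read 5.00, 4.74, 5.04 and 4.83 against 5.33, 5.75, 5.36 and 5.36 (0.55 ± 0.13, adjusted p 0.00653). All 3 genes were free of overlap, as was Klf1 with 4.89, 5.08, 4.98 and 4.90 against 5.44, 6.40, 6.05 and 5.37 (0.85 ± 0.21, adjusted p 0.0115). Epor, in contrast, read 4.64, 4.81, 5.09 and 5.29 against 4.98, 5.32, 5.51 and 5.10, overlapping groups with a change of 0.27 (95% interval -0.12 to 0.66, adjusted p 0.4). Gfi1b was at 0.61 (adjusted p 0.0584) and Nfe2 at -0.03 (interval -0.23 to 0.18).

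Band 3 (Slc4a1), the chloride-bicarbonate exchanger of red cells, read 5.20, 5.82, 5.30 and 5.76 in WT and 6.44, 7.62, 6.88 and 7.30 in CreER-Raptor cultures (1.54 ± 0.22, adjusted p 6.49e-05). Kel read 4.00, 4.27, 4.36 and 4.33 against 5.09, 6.50, 5.42 and 5.78 (1.46 ± 0.24, adjusted p 0.000284). Mfsd2b read 5.84, 5.84, 5.51 and 5.85 against 6.91, 7.10, 7.24 and 6.97 (1.29 ± 0.15, adjusted p 5.92e-06). The genotypes were apart for all 3, and Mfsd2b had the smallest adjusted p of the 34. Rhag read 4.49, 4.88, 3.97 and 4.82 against 5.45, 6.48, 5.53 and 6.19 (1.37 ± 0.33, adjusted p 0.00792), and Aqp1 read 5.15, 5.57, 5.34 and 5.44 against 6.06, 6.69, 6.40 and 6.42 (1.02 ± 0.21, adjusted p 0.00214), both again apart. The further membrane genes that rose were Cldn13 (1.47), Rhd (1.06), Ermap (1.03), Ank1 (0.84), Sptb (0.72) and Icam4 (0.60). The Ermap call (adjusted p 0.0248) was lost without WT replicate 2 or 3 or without any one CreER-Raptor array except replicate 1, at adjusted p 0.0514 to 0.095. Add2 overlapped between the genotypes (5.16, 5.07, 5.69 and 5.41 against 5.49, 6.04, 5.72 and 5.77, a change of 0.42, adjusted p 0.189). Tspo2, with 0.50 (adjusted p 0.112), and Tspan33, with 0.32 (adjusted p 0.436), did not pass the test.

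Of the remaining genes Car1 read 5.34, 5.19, 4.26 and 5.80 against 6.61, 7.68, 6.37 and 6.83 (1.73 ± 0.35, adjusted p 0.00194). Hemgn, a nuclear protein of blood progenitors, read 5.13, 5.53, 5.83 and 5.53 against 6.30, 7.89, 7.02 and 7.04 (1.56 ± 0.24, adjusted p 0.000155). Car2 read 6.89, 6.91, 6.62 and 6.98 against 8.28, 8.49, 8.14 and 8.24 (1.44 ± 0.18, adjusted p 1.5e-05). The lowest CreER-Raptor array of each gene was above the highest WT array. Ces2g (1.37), Trim10 (0.84) and Slc25a37 (0.57) also rose. The Trim10 call (adjusted p 0.0188) was lost without WT replicate 1 or 3 or CreER-Raptor replicate 2 (adjusted p 0.0522 to 0.0667). Sphk1 stood at -0.08 (-0.39 to 0.22) and Blvrb at -0.13 (-0.59 to 0.32).

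**Figure D3:**
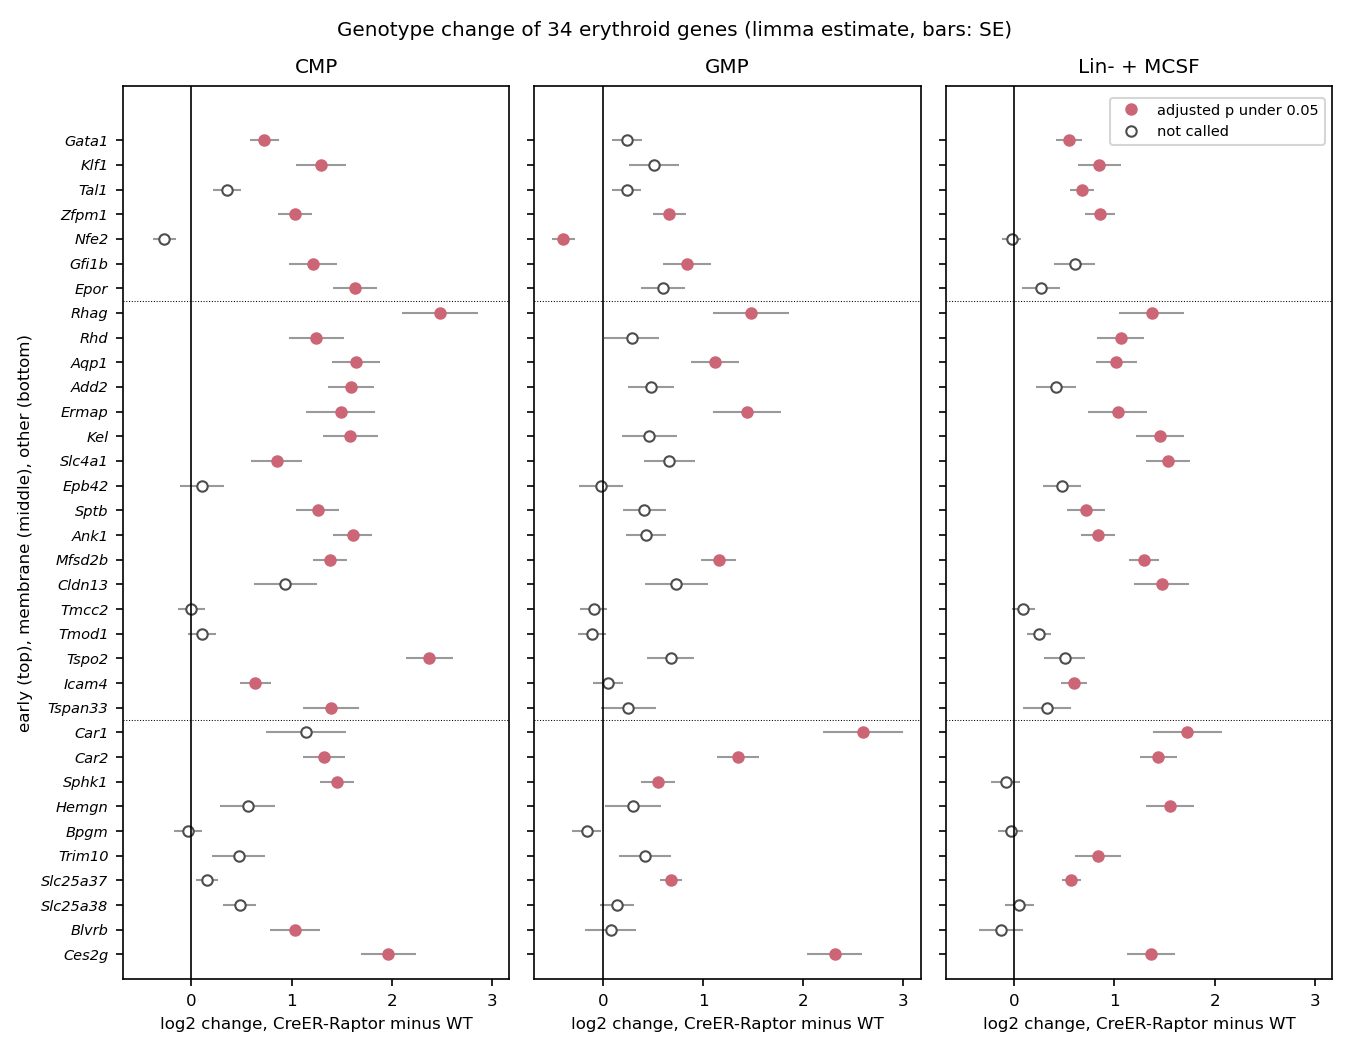
Log2 change of each of the 34 genes, CreER-Raptor minus WT (points, limma estimates with bars of 1 SE), in CMP, GMP and Lin- + MCSF cells. Filled points have an adjusted p under 0.05 and dotted lines part early, membrane and other genes. Filled points number 22 in CMP, 12 in GMP, 1 of them below 0 (Nfe2), and 21 in Lin- + MCSF.

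Across the 3 genotype comparisons, which use separate arrays but 1 shared estimate of the spread, 7 genes were higher in CreER-Raptor cells each time: Zfpm1, Rhag, Aqp1, Ermap, Mfsd2b, Car2 and Ces2g. Of all tested genes 0.775% had that pattern. Whether arrays of the same number share mice is not stated. CreER-Raptor replicate 2 was the highest array of its group for most of the 34 genes in all 3 populations. The 3 comparisons are therefore not shown to be independent. Without CreER-Raptor GMP replicate 2 the GMP calls for Zfpm1, Rhag and Ermap were lost (adjusted p 0.0649, 0.0973 and 0.0663). Ermap also lost its Lin- + MCSF call without any one of several arrays. Another 8 passed in CMP and Lin- + MCSF (Gata1, Klf1, Rhd, Kel, Slc4a1, Sptb, Ank1 and Icam4), beside 0.715% of all genes. In CMP alone 5 were higher (3.5% of all genes), in Lin- + MCSF alone 4 (4.66%) and in GMP alone 0 (1.91%). In CMP and GMP 2 were higher (1.02% of all genes), in GMP and Lin- + MCSF 2 (0.673%), and 6 in none, beside 86.8% of all genes (Nfe2, Epb42, Tmcc2, Tmod1, Bpgm and Slc25a38). The 5 were Epor, Add2, Tspo2, Tspan33 and Blvrb, the 4 were Tal1, Cldn13, Hemgn and Trim10, and the pairs were Gfi1b with Sphk1 and Car1 with Slc25a37. A call in 1 population and not in another does not show a difference between them, which the interaction terms test.

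The genotype change was smaller in GMP than in CMP for 3 genes, where 1.83% of all tested genes differed in that direction: Tspo2 (by -1.70 ± 0.33, adjusted p 0.00585), Ank1 (-1.18 ± 0.28, adjusted p 0.0232) and Sphk1 (-0.90 ± 0.24, adjusted p 0.0463). Without CreER-Raptor GMP replicate 2 the count was 8, since Epor, Rhag, Add2, Tspan33 and Blvrb then passed too, and without CreER-Raptor CMP replicate 3 it was 6. Most of the other CMP and GMP arrays, left out in turn, ended the calls for Ank1 and Sphk1, so that the count was 1 or 2. Array weights gave 16 calls, 14 smaller and 2 larger in GMP. The share of all genes called in that fit is not given here. In Lin- + MCSF the change was smaller than in CMP for 5 genes (3.45% of all genes): Tspo2 (-1.87 ± 0.31, adjusted p 0.000369), Sphk1 (-1.54 ± 0.22, adjusted p 0.000106), Epor (-1.36 ± 0.29, adjusted p 0.00403), Add2 (-1.17 ± 0.31, adjusted p 0.0183) and Blvrb (-1.17 ± 0.33, adjusted p 0.0308). The Add2 call was lost without CreER-Raptor CMP replicate 1 or 2 or WT CMP replicate 1 (adjusted p 0.055 to 0.0688), and the Blvrb call without any of 5 arrays (adjusted p 0.0536 to 0.117). Without CreER-Raptor CMP replicate 3 the count was 8, and without its replicate 2 or WT CMP replicate 1 it was 3. No gene of the 34 had a larger change in Lin- + MCSF than in CMP at the threshold (4.32% of all genes did), with Hemgn at 1.00 (adjusted p 0.113) and Slc25a37 at 0.42 (adjusted p 0.0898). Hemgn passed without CreER-Raptor Lin- + MCSF replicate 1 (1.25, adjusted p 0.0189), and Slc25a37 without WT Lin- + MCSF replicate 3 (0.48, adjusted p 0.0439). Both sets of interaction terms share the CMP arrays. Except for Blvrb, the genes called read low outside CMP, beside array medians of 4.76 to 4.91. Group means in WT and CreER-Raptor GMP were 4.06 and 4.74 for Tspo2, 5.09 and 5.63 for Sphk1 and 5.32 and 5.75 for Ank1. In Lin- + MCSF they were 4.04 and 4.55 for Tspo2, 4.99 and 4.90 for Sphk1 and 4.96 and 5.23 for Epor. For Add2 they were 5.33 and 5.75 there, and for Blvrb 6.40 and 6.27. Whether low signal narrowed these changes was not tested. Between Lin- + MCSF and GMP limma called 0 of the 34 different in either direction (4.77% of all genes). An unadjusted p under 0.05 was found for 9 of the 34, but the share of all genes at that level is not given here. Array weights and the replicate block each gave 2 calls there, leaving out WT Lin- + MCSF replicate 3 or CreER-Raptor replicate 2 gave 1, leaving out CreER-Raptor replicate 1 gave 2, and the smallest adjusted p was that of Hemgn (0.0536).

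Other erythroid genes were taken from 4 further lists. Of all tested genes 6.01% were higher and 5.44% lower in CreER-Raptor CMP. The shares were 4.37% and 7.53% in GMP and 6.82% and 5.73% in Lin- + MCSF. A single call in a list of this size is near these shares and is no result about the list. Of 13 partners of the early transcription factors 4 were higher and 0 lower in CreER-Raptor CMP: Klf3 (0.74), a KLF1-like repressor, Gata2 (0.66), the factor that precedes Gata1, Bcl11a (0.57), a repressor of fetal globin, and Ldb1 (0.48), a bridging subunit of the TAL1 complex. Their list's median was 0.22. In GMP 2 were higher (Gata2, 1.12, and Klf3, 0.46). In Lin- + MCSF 5 were higher, among them Lmo2 (0.50), another subunit of that complex, and E2f2 was lower (-0.67). Of 9 genes of the erythropoietin signal, the kinase and transcription factor pathway below Epor, 1 was higher in CMP (Stat5a, 0.38), 1 in GMP (Pim1, 1.16) and 4 in Lin- + MCSF (Cish, 1.02, Pim1, 0.72, Gab1, 0.56, and Stat5b, 0.47), with none lower. Cish and Pim1 are common targets of STAT5.

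The list of further membrane and skeleton genes had 13 tested members of 17. In CMP 3 were higher and 0 lower: Tfr2 (1.23), the second transferrin receptor, Slc43a1 (0.62), an amino acid transporter, and Xk (0.52), the partner of Kell. In GMP 3 were higher and 2 lower, and in Lin- + MCSF likewise 3 and 2, with Cd36, a scavenger receptor also found on macrophages, at -2.06. Of 17 globin and heme genes 8 were tested. In CMP 5 of the 8 were higher and 0 lower, with a median of 0.59, and 4 of these were Fech (1.07), Cpox (0.89), Ppox (0.69) and Urod (0.50), all enzymes of heme synthesis. In GMP limma called 0 of the 8, and in Lin- + MCSF 2 were higher, Abcb10 (0.48), a mitochondrial transporter of erythroid cells, and Fech (0.34). The adult globin genes Hba-a1, Hba-a2, Hbb-bs and Hbb-bt were not analysed here.

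Markers of other cell types moved with the genotype beside the erythroid genes, as did Cd34, and their part in the result was not tested. Their counts stand beside the same shares of all tested genes, 6.01% higher and 5.44% lower in CMP. In GMP these were 4.37% and 7.53%, and in Lin- + MCSF 6.82% and 5.73%. In CreER-Raptor CMP 8 of 10 granulocyte-macrophage progenitor markers were lower and 0 higher, among them Irf8 (-1.88), Cebpe (-1.76) and Csf1r (-1.51), the receptor for M-CSF. Their summed linear signal was 22592 to 23971 in WT CMP and 16609 to 17772 in CreER-Raptor CMP, while that of the 17 membrane genes was 3520 to 4114 and 8293 to 14047. Of 9 neutrophil markers 7 were lower in CMP, Ltf (-3.77) and Camp (-3.70) most, with sums of 7339 to 8869 against 2756 to 3364. Of 7 eosinophil markers 4 were lower. Of 10 macrophage markers, a list chosen because macrophages surround erythroblasts in the marrow, 4 were higher in CMP (C1qb 1.81, Mrc1 1.04 and Hmox1 0.82 among them), with sums of 758 to 869 against 950 to 1475. Of 10 megakaryocyte markers 1, Gp5 (1.03), was higher in CMP and the list's median was -0.24, with overlapping sums of 1987 to 2306 and 1698 to 2128.

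In GMP 3 of the 10 granulocyte-macrophage markers were lower in CreER-Raptor, with a median of -0.02 (sums 27849 to 28710 against 24740 to 27087). Of 9 tested mast cell and basophil markers 4 were higher (Cpa3, 1.00, and Csrp3, 0.98, among them), with sums of 4315 to 4476 against 5985 to 7033. Megakaryocyte markers gave 1 higher (Itga2b, 0.90) and 1 lower. Of 9 neutrophil markers 4 were lower and 1 higher in GMP (median -1.18; sums 6675 to 9061 against 5223 to 5973), and of 7 eosinophil markers 4 were lower (median -0.76; sums 3832 to 6173 against 1789 to 2355). In replicate 2 of CreER-Raptor GMP the mean log2 signal of the megakaryocyte list was 6.18, beside 5.97 and 6.10 in the other 2, and that of the mast cell list was 7.47, beside 7.43 and 7.59. For the early erythroid factors it was 6.63 in replicate 2, beside 6.25 and 6.07, and for the membrane genes 6.20, beside 5.60 and 5.42. In Lin- + MCSF 5 of 10 megakaryocyte markers were higher (Pf4, 0.95, Gp5, 0.90, and Vwf, 0.80, among them; sums 2139 to 2276 against 2590 to 2816) and 5 of 9 stem and multipotent progenitor markers (Kit, 0.99, Meis1, 0.70, and Hlf, 0.60, among them; sums 2121 to 2441 against 2673 to 3105). The macrophage markers had 4 lower there, including Adgre1 (-1.49), with sums of 3219 to 3755 against 2384 to 2668. Of the 10 granulocyte-macrophage progenitor markers 3 were lower there and 0 higher, with a median of 0.17. Neutrophil markers gave 2 lower of 9, mast cell and basophil markers 2 lower of 9, and eosinophil markers 2 lower and 1 higher of 7. No marker can read 0 on this log2 scale. Besides 1 mast cell and basophil gene and 1 mature lineage gene, no listed marker had a mean below the filter over all arrays.

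**Figure D4:**
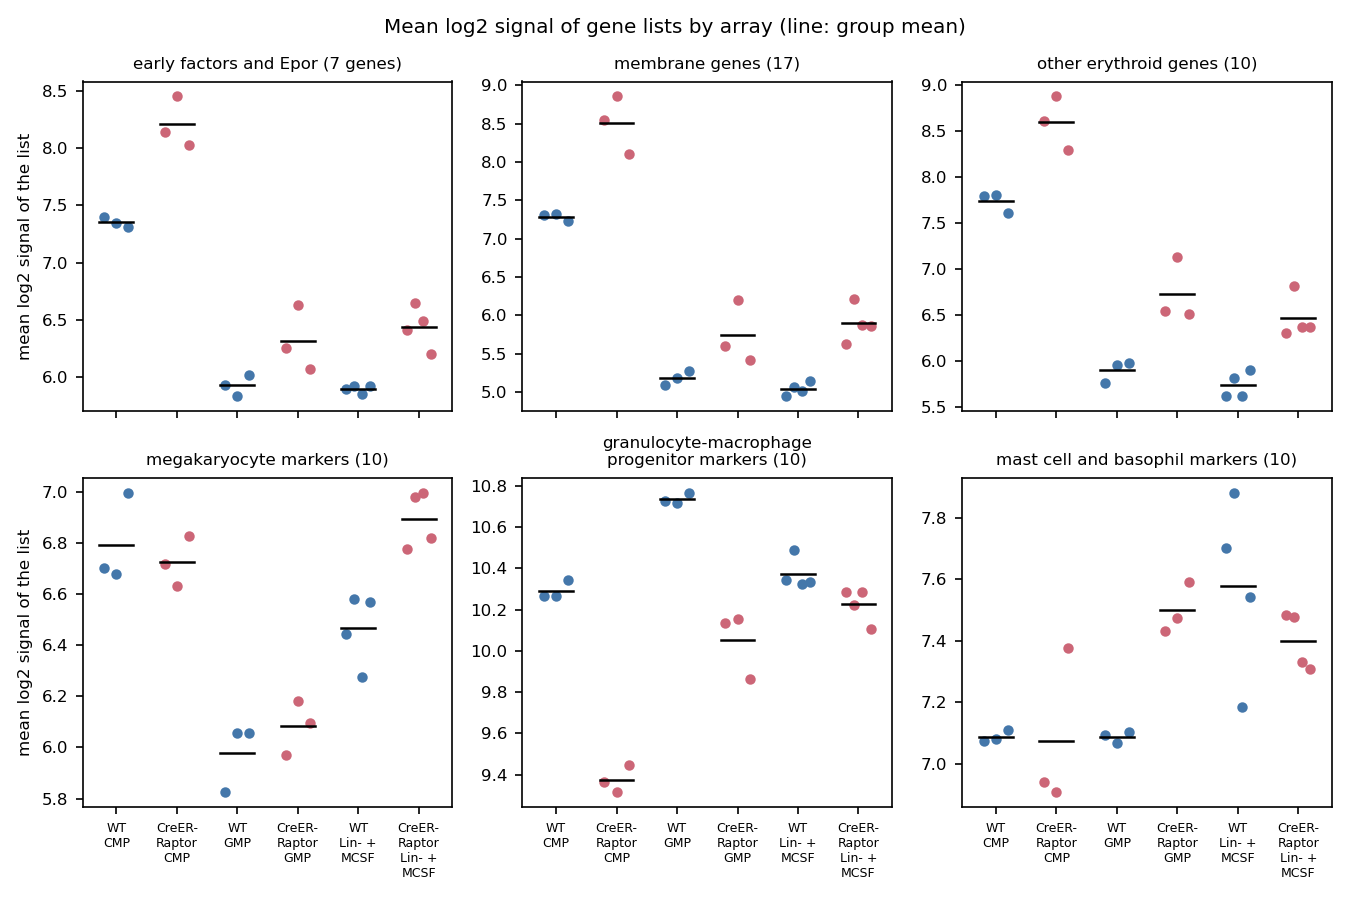
Mean log2 signal of 6 gene lists on each array (dots, blue for WT and red for CreER-Raptor) with the group mean (line), for the 3 erythroid lists in the upper row and for 3 lists of other cell types in the lower row. The axes differ between lists and do not start at 0. The erythroid lists are highest in CreER-Raptor CMP, where the granulocyte-macrophage progenitor markers are lowest.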

How the data were processed

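Total RNA of sorted mouse bone marrow cells, 1 to 5 ng per sample, was amplified, labelled with biotin and hybridized to 20 single-colour arrays, per the labels' protocols. The deposited values are log2 signals per probe set. RMA, Partek 6.6 and limma appear in the submitters' processing notes, with no roles. RMA puts all arrays it handles on 1 distribution and so takes out any shift common to most genes. Which arrays it handled together is not stated in the sources at hand. Detection above background was not assessed, and 0 columns of the table were left unused. Arrays were grouped by their titles. Precision is limited by the number of arrays.

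Of 41345 probe sets 23521 had 1 symbol. The probe set with the highest mean was kept per gene, and genes at or above the 25th percentile (log2 3.86) were tested. limma 3.58.1 in R 4.3.3 fitted a mean for each of 6 groups over all 20 arrays (14 residual degrees of freedom, eBayes), for 5 differences between groups and 3 interactions. Errors are SE of the model unless named SD, and a call is a Benjamini-Hochberg adjusted p under 0.05 over 16638 genes. A gene's arrays are called apart where the groups' values do not overlap. The method was tested on simulated data. Named with every array's value were 8 fixed genes and, per genotype comparison, the 2 early and 4 further members of smallest p among the rest. Of the further erythroid lists up to 4 genes of smallest p were named, and of each marker list up to 3. The alternatives were other filters, scalings, probe set rules, fits and call rules and leaving out each array. Sequences came from a RefSeq table (GRCm38.p6) and were handled, like the figures, with Python 3.11.15 and matplotlib 3.10.9. Members, lists and tests were chosen with earlier results of these data known.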

Additional observations from a re-analysis of the deposited data

Results flagged for a closer look

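The arrays of each erythroid gene were checked for 1 array far from the rest in the groups of 4, which are the Lin- + MCSF groups. Of 68 such checks 4 picked out an array, and chance picks out about 1 in 20. Gata1 in CreER-Raptor Lin- + MCSF replicate 2 read 5.75, beside 5.33 to 5.36 in the other 3 arrays. Tal1 in WT Lin- + MCSF replicate 3 read 6.04, beside 6.25 to 6.29. Mfsd2b in the same WT array read 5.51, beside 5.84 to 5.85. Icam4 in CreER-Raptor Lin- + MCSF replicate 1 read 5.75, beside 6.30 to 6.40.

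The genotype change differed between populations, by an interaction term in limma, for 6 genes. It was smaller in GMP than in CMP for Ank1 (-1.18), Tspo2 (-1.70) and Sphk1 (-0.90), beside 1.83% of all tested genes. The calls for Ank1 and Sphk1 were lost when most single CMP or GMP arrays were left out. The genotype change was smaller in Lin- + MCSF than in CMP for Epor (-1.36), Add2 (-1.17), Tspo2 (-1.87), Sphk1 (-1.54) and Blvrb (-1.17), beside 3.45% of all tested genes. The Add2 and Blvrb calls there were lost without any 1 of several arrays. In CMP itself all 6 genes were higher in CreER-Raptor. Outside CMP these genes, except Blvrb, had low group means, and whether that narrowed the change was not tested.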

How the results depend on the processing

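Under other filters, probe set rules, fits, scalings and call rules, the count of the 34 genes called stayed within 1.5 times its value for the genotype in CMP and in Lin- + MCSF and for both WT population differences. Array weights gave 20 calls for the genotype in GMP (18 higher, 2 lower) and 16 for the GMP against CMP interaction (2 higher, 14 lower). For the Lin- + MCSF against GMP interaction array weights gave 2 calls and a filter at the 50th percentile gave 1, where the fit as reported gave 0. With each array left out in turn the calls ranged from 19 to 25 for CMP, 6 to 15 for GMP, 19 to 22 for Lin- + MCSF, 27 to 27 for WT GMP and 30 to 31 for WT Lin- + MCSF against WT CMP, 1 to 8 and 3 to 8 for the interactions of GMP and of Lin- + MCSF with CMP, and 0 to 2 for that of Lin- + MCSF with GMP. The cause of these differences was not tested, and for most settings the share of all genes called is not given here. Of 1113 other comparisons of a single gene's change 1066 kept their direction and their side of the threshold, 29 lost the call, 18 gained it and 0 reversed. These cover 63 results, of the 8 fixed genes and those of smallest p alone, so the other members are not counted. Tmcc2 and Bpgm, not among the genes counted and both not called, changed sign between scalings in CMP. The median of all genes in WT Lin- + MCSF against WT CMP was -0.14 as deposited and -0.0047 after cyclic loess.

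Replicate numbers were not taken to pair the samples, since not every same-numbered pair had correlated deviations over 0.1. The correlations ran from -0.34 to 0.12 between genotypes. Between CMP and GMP they were 0.068, 0.0052 and 0.087 in WT and 0.18, 0.048 and 0.17 in CreER-Raptor, where each was above the highest correlation with another number (0.045, -0.018 and -0.082), a hint from the data and not from the design. A replicate block joined WT and CreER-Raptor arrays of the same number within each population. It left 23, 11 and 21 calls for the genotype in CMP, GMP and Lin- + MCSF. For the interaction of Lin- + MCSF with GMP it gave 2. The planned random block for shared animals was not run, because a correlation over 0.1 was not met in every pair. No fit therefore modelled sharing between CMP and GMP arrays. Groups of 3 or 4 arrays limit what can be called, and signal over background was not assessed.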
